A study of Mus musculus with 5 samples.

Results

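The Dmrt genes encode transcription factors that share a zinc-finger-like DNA-binding fold, the DM domain, named after the sex regulators doublesex of the fly and mab-3 of the worm. In the mouse, some members act in the testis and its germ cells, and others act in somites, muscle or the nervous system. Pcgf6, a RING finger protein, belongs to a variant form of polycomb repressive complex 1 that occupies, among others, promoters of germ cell genes in embryonic stem cells (ESCs). Occupancy of 7 Dmrt promoters by Pcgf6 was measured by ChIP-seq, in which an antibody retrieves the DNA that a protein sits on, and the sequenced DNA is set against chromatin sequenced without this step (input). The 7 genes were all the autosomal Dmrt genes among the 11 in the annotation. The other 4 lie on chromosome X and were left out by the rule that set the family. Of the 7, 3 were grouped as germ cell members (Dmrt1, Dmrtb1 and Dmrtc2) and 4 as somatic members (Dmrt2, Dmrt3, Dmrta1 and Dmrta2). All 7 were among the 17939 promoters, of 22219 gene symbols, that had at least 30 input fragments and served as the background.

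All 5 libraries came from CCE cells, a mouse ESC line cultured with serum and LIF and cross-linked with disuccinimidyl glutarate and paraformaldehyde. They comprised 1 input library, 2 replicates with the Santa Cruz antibody and 2 replicates with the Abcam antibody against Pcgf6, and no library came from cells without Pcgf6 or from a control antibody. The family and its division were selected on the same ChIP and input depths that are described here. For this reason the levels below are given as a description, without a test.

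The input held 23042189 fragments and the ChIP libraries held 2290273 to 2851073. The replicates of an antibody were largely the same fragments: 88.2% of those in Santa Cruz replicate 1 and 88.5% of those in Abcam replicate 1 were present in the other replicate, shifted by about 1 or 15 bp. They differed by less than the sampling noise, with a chi-square per degree of freedom of 0.151 and 0.158, against 1.01 between the antibodies. They were therefore counted as 1 library per antibody, with 2561439 fragments for Santa Cruz and 3157723 for Abcam. Values of each replicate are shown, but they are no independent check of one another, so no SD is given. Pooled values carry exact Clopper-Pearson 95% intervals, which cover counting error only.

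Pcgf6 ChIP signal was highest over the promoters of Dmrtb1 and Dmrtc2, and the other 5 promoters stayed below 2-fold with either antibody in the 2-kb window. Within 2 kb of the transcription start site (TSS), the ChIP/input ratio of pooled fragments, scaled by library totals, was 3.44 with Santa Cruz and 2.98 with Abcam for Dmrtb1. For Dmrtc2 it was 2.51 and 4.16. The smaller of the 2 ratios was 1.43 for Dmrt1, the next member. Thus 2 of the 7 members reached 2-fold with both antibodies, where 221 of the 17939 promoters did (1.23%). With Santa Cruz alone the same 2 of 7 members reached 2-fold (2.66% of all promoters), and with Abcam alone also these 2 (2.97%). Since these ratios chose the family, nothing is read from the difference between the members and the background.

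**Figure D1:**
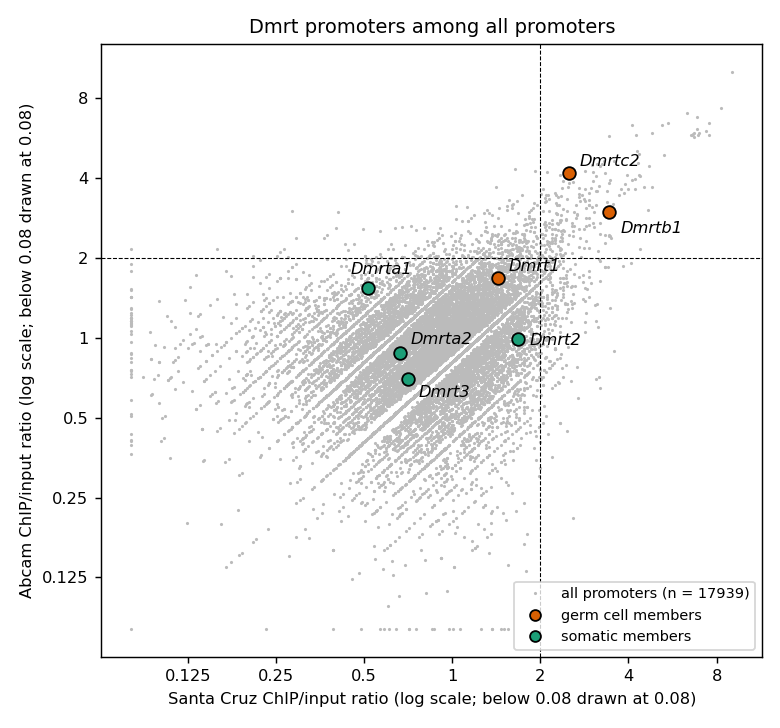
Pcgf6 ChIP/input ratio within 2 kb of the TSS with the Santa Cruz antibody (x axis) and the Abcam antibody (y axis), both on log scales, for 17939 promoters (grey), the germ cell Dmrt members (orange) and the somatic members (green). Dmrtb1 and Dmrtc2 lie beyond both dashed lines at 2-fold, Dmrt1 lies inside both, and no somatic member passes either line.

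Dmrtb1 and Dmrtc2 had the highest depth of the family in each of the 4 ChIP libraries. Mean depth over the 4 kb around each TSS was expressed in multiples of the mean depth of that library over the genome. The input was above its genome mean at every member, from 1.57 at Dmrta1 to 3.41 at Dmrt3, so that a ChIP level has to be read against the input at the same promoter.

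**Figure D2:**
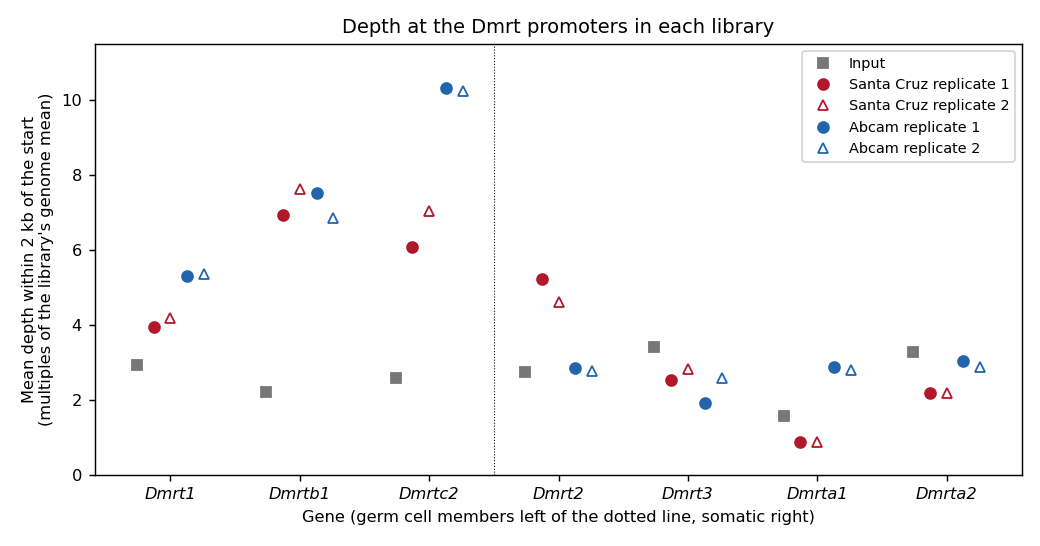
Mean depth within 2 kb of the TSS of each Dmrt gene (x axis) in multiples of the genome mean of the same library (y axis), with 1 symbol for each of the 5 libraries. All 4 ChIP symbols stand above the input symbol at Dmrt1, Dmrtb1 and Dmrtc2. At the somatic member Dmrt2 the Santa Cruz symbols (5.22 and 4.62) also stand above the input (2.75), and the Abcam symbols (2.85 and 2.77) stand next to it. At the somatic member Dmrta1 the Abcam symbols (2.88 and 2.79) stand above the input (1.57), and the Santa Cruz symbols (0.869 and 0.866) stand below it.

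Dmrtb1, also known as Dmrt6, is a germ cell gene that acts in spermatogonia as they pass from mitotic divisions to meiosis. It lies on the minus strand of mm9 at chr4:107348895-107356835, with its main TSS at 107356835 and a second start 650 bp downstream. Its relative depth was 2.22 in the input, 6.93 and 7.64 in the Santa Cruz replicates, and 7.53 and 6.85 in the Abcam replicates. Both antibodies gave values higher than the input value. The interval of the pooled Abcam to Santa Cruz ratio (0.506–1.49) included 1. Pooled fragments within 2 kb numbered 74 in the input, 29 with Santa Cruz and 31 with Abcam. The ratios were 3.44 (95% interval 2.16–5.35) and 2.98 (1.90–4.60), at ranks 54 and 129 of 17939 promoters. Since these ratios also chose the family, the ranks are a description and nothing is read from them.

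The signal at Dmrtb1 lay on both sides of the TSS. In the 2 kb upstream, 12 fragments with each antibody stood against 26 in the input, ratios of 4.05 (1.86–8.32) with Santa Cruz and 3.29 (1.51–6.75) with Abcam. In the 2 kb downstream the ratios were 3.11 (1.68–5.51) and 2.82 (1.57–4.89). The 600-bp window with most ChIP fragments within 10 kb was centred 500 bp downstream with Santa Cruz (11 fragments, ratio 5.08, 2.19–11.2) and 550 bp downstream with Abcam (13 fragments, ratio 4.41, 2.03–9.23). These windows held 564 and 514 bases of coding sequence, and the rest was intron. The windows with most ChIP fragments thus lay over coding sequence and around the second start, not at the main TSS. They were picked for their fragment count, and the input was also high there (19 and 21 fragments). They therefore mark a place rather than an amount. Relative to the input, the upstream ratios given above were no lower than the downstream ones. The 200 bases in the middle of the stretch common to both windows are printed to show this place (mm9 chr4:107356210-107356409, minus strand, 426 to 625 bp downstream of the TSS). They have no capitals because none of the motifs searched occurs in them:

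Dmrtb1: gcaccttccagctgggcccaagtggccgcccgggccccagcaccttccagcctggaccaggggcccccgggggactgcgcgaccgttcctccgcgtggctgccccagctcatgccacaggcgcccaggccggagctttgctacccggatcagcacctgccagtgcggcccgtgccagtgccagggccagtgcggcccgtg

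This stretch is 74.5% G and C and holds 15 CpG dinucleotides. Over the rest of the gene, downstream of the promoter window, the ratio was 0.687 (0.307–1.35) with Santa Cruz and 0.991 (0.548–1.68) with Abcam. The enrichment of Dmrtb1 was therefore seen in its promoter window and was not detectable along the gene body at this depth.

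Dmrtc2, also known as Dmrt7, is expressed in the testis and acts in male meiosis, where it is found on the chromatin of the sex chromosomes. It lies on the plus strand at chr7:25655076-25662670, with its TSS at 25655076. Its relative depth was 2.57 in the input, 6.09 and 7.03 in the Santa Cruz replicates, and 10.3 and 10.2 in the Abcam replicates. The Abcam values were the highest of the family in any library. Pooled fragments numbered 84 in the input, 24 with Santa Cruz and 49 with Abcam, which gave ratios of 2.51 (1.52–3.99) and 4.16 (2.86–5.98). They ranked 169 and 40 of 17939. The Abcam ratio was 1.66 times the Santa Cruz ratio, with an interval of 0.997 to 2.82 that just included 1.

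The signal at Dmrtc2 lay close to the TSS. The best 600-bp window was the same with both antibodies (one of 3 tied windows with Abcam), centred 150 bp upstream of the TSS, with 17 input fragments, 13 Santa Cruz fragments and 27 Abcam fragments. Its ratio was 6.72 (3.0–14.7) with Santa Cruz and 11.3 (5.95–22.1) with Abcam. A window picked for its fragment count overstates the level, so these values mark a place rather than an amount. Lypd4, a gene on the opposite strand, starts 116 and 325 bp upstream of Dmrtc2, and the window held 335 bases of Lypd4 untranslated exon and 116 bases of Dmrtc2 untranslated exon. With fragments of 300 bp, signal at the Dmrtc2 start and signal at the Lypd4 starts cannot be told apart. The 115 bases between the 2 genes (chr7:25654961-25655075, plus strand of Dmrtc2), which no annotated transcript of either gene covers, are printed because they lie next to the centre of the peak:

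Dmrtc2: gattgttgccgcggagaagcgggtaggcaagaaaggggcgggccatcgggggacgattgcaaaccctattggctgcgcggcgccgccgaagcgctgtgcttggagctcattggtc

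They are 64.3% G and C with 12 CpG dinucleotides, and no motif searched occurs in them. The ratio over the rest of the Dmrtc2 gene was 0.586 (0.209–1.33) with Santa Cruz and 0.950 (0.473–1.74) with Abcam.

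Dmrt1 acts in both germ cells and Sertoli cells, the somatic support cells of the testis, where it maintains the male fate. It lies on the plus strand at chr19:25580108-25678819, with its main TSS at 25580196. Its relative depth was 2.93 in the input, 3.94 and 4.19 in the Santa Cruz replicates, and 5.30 and 5.37 in the Abcam replicates. All 4 ChIP values were above the input, by less than at the other germ cell members. Pooled fragments numbered 98, 16 and 23, and the ratios were 1.43 (0.789–2.45) with Santa Cruz and 1.67 (1.01–2.65) with Abcam. The Santa Cruz interval included 1, and the Abcam interval came close to it.

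What signal there was at Dmrt1 lay downstream of the TSS. With Abcam, 21 of the 23 fragments lay in the 2 kb downstream, where the ratio was 3.05 (1.74–5.19), and 2 lay upstream, where it was 0.291 (0.0343–1.11). With Santa Cruz, 11 lay downstream (1.97, 0.925–3.84) and 5 upstream (0.896, 0.279–2.24). The best windows were centred 450 bp downstream with Santa Cruz (6 fragments, ratio 2.51, 0.829–6.43) and 700 bp downstream with Abcam (14 fragments, ratio 3.99, 1.92–7.98), across the first coding exon and the first intron. The intronic part common to both windows (chr19:25580692-25580945, plus strand, 496 to 749 bp downstream of the TSS) is printed because it is the one place in these windows with an E-box, the CACGTG site bound by Myc, Max and Mga. Capitals mark this site and a TCCCGC site of the E2F type:

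Dmrt1: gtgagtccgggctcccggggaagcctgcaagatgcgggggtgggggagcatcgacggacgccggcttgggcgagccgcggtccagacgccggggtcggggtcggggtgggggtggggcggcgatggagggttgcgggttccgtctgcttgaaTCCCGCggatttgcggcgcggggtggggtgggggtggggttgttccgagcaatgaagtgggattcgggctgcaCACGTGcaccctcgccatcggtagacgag

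Of the 254 bases, 70.9% are G and C, with 29 CpG dinucleotides. Over the rest of the gene (96623 bp) the ratio was 0.804 (0.672–0.955) with Santa Cruz and 0.987 (0.852–1.14) with Abcam.

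**Figure D3:**
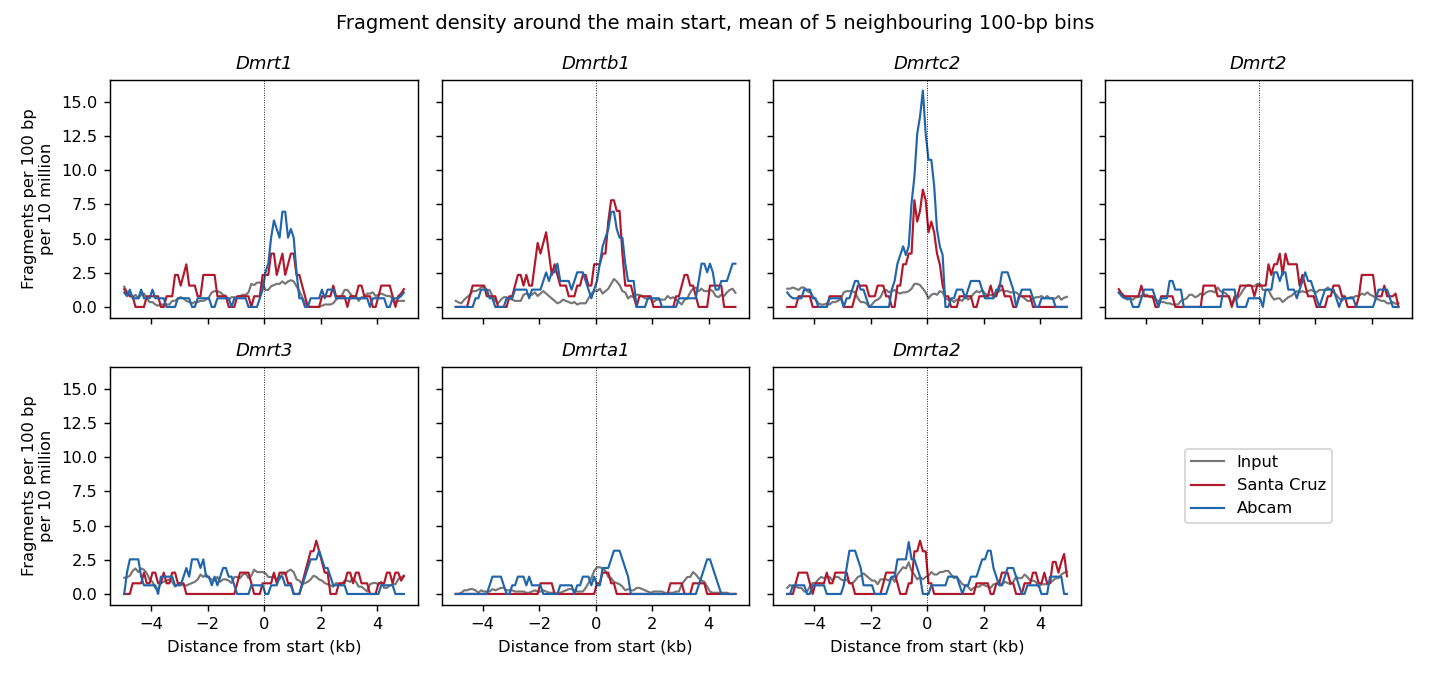
Fragment density, scaled by library totals (y axis, mean over 5 neighbouring bins of 100 bp) against the distance from the TSS in kb, with positive values downstream, for the input (grey), Santa Cruz (red) and Abcam (blue) at each Dmrt gene. With both antibodies Dmrtc2 has a peak around the TSS and Dmrtb1 one downstream of it, while Dmrt1 stands above the somatic members with Abcam and level with Dmrt2, Dmrt3 and Dmrta2 with Santa Cruz.

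Dmrt2 is needed for the patterning of somites and for embryonic myogenesis. It lies on the plus strand at chr19:25746907-25753500. Its relative depth was 2.75 in the input, 5.22 and 4.62 in the Santa Cruz replicates, and 2.85 and 2.77 in the Abcam replicates. The Santa Cruz replicates were above the input and the Abcam replicates were level with it. Pooled fragments numbered 94, 18 and 13, with a Santa Cruz ratio of 1.68 (0.956–2.80) and an Abcam ratio of 0.985 (0.506–1.77). The Abcam to Santa Cruz ratio was 0.586, with an interval of 0.264 to 1.26 that included 1. The Santa Cruz fragments at Dmrt2 lay mainly downstream, with a ratio of 2.34 (1.13–4.50) over the 2 kb downstream and 6 fragments in the best window, 850 bp from the TSS. In that window, against 8 input fragments, the Santa Cruz ratio was 6.59 (1.88–21.6), above the best Santa Cruz windows of Dmrtb1 and Dmrt1, with an interval that overlapped both. The Abcam library had 10 fragments in those 2 kb (1.58, 0.711–3.19).

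Dmrt3 acts in interneurons of the spinal cord and lies on the plus strand at chr19:25685027-25698410. Its relative depth was 3.41 in the input, 2.53 and 2.82 in the Santa Cruz replicates, and 1.92 and 2.57 in the Abcam replicates. Every ChIP value was below the input. The ratios were 0.706 (0.315–1.39) with Santa Cruz and 0.700 (0.340–1.30) with Abcam, from 112 input, 9 Santa Cruz and 11 Abcam fragments. The 200 bases upstream of its TSS (chr19:25684827-25685026, plus strand) are printed as a contrast, since they are 72.0% G and C and hold an E2F-type site (capitals, read here as GCGGGA on the other strand) at a promoter without enrichment:

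Dmrt3: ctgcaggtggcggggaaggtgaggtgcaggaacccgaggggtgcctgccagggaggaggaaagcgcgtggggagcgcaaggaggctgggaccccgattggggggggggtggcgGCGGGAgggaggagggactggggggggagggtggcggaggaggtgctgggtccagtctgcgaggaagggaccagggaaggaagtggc

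Dmrta1 and Dmrta2 both lie on the plus strand of chromosome 4 and are expressed in the developing nervous system, where Dmrta2 (also known as Dmrt5) patterns the cortex. At Dmrta1 (main TSS 89354889) the relative depth was 1.57 in the input, 0.869 and 0.866 in the Santa Cruz replicates, and 2.88 and 2.79 in the Abcam replicates. The antibodies thus lay on opposite sides of the input. The counts were the smallest of the family, with 51 input, 3 Santa Cruz and 11 Abcam fragments, and the ratios were 0.517 (0.103–1.60) and 1.54 (0.722–2.99). The Abcam ratio was 2.97 times the Santa Cruz ratio, with an interval from 0.786 to 16.6, so a difference between the antibodies was not detectable at this depth. At Dmrta2 (TSS 109650658) the relative depth was 3.28 in the input, 2.19 and 2.18 in the Santa Cruz replicates, and 3.03 and 2.87 in the Abcam replicates, all 4 below the input. From 106 input, 8 Santa Cruz and 13 Abcam fragments, the ratios were 0.663 (0.279–1.35) and 0.874 (0.450–1.56). In the best windows of the somatic members, found anywhere within 10 kb and holding 2 to 7 fragments, the ratio ranged from 2.44 (Dmrta2, Santa Cruz) to the 6.59 of Dmrt2, with 4.99 (1.61–14.5) at Dmrta1 with Abcam. An antisense transcript, 3010003L10Rik, starts 240 and 562 bp upstream of Dmrta2 and shares its window.

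By group, the 3 germ cell members together had a ratio of 2.37 (1.79–3.10) with Santa Cruz and 2.87 (2.26–3.62) with Abcam. The 4 somatic members together had 0.919 (0.640–1.29) and 0.942 (0.682–1.28), close to the medians of all promoters, 0.864 and 0.913. The germ cell sum was carried by Dmrtb1 and Dmrtc2: without Dmrt1, which is also a gene of somatic gonad cells, it was 2.95 (2.12–4.05) and 3.61 (2.72–4.75). The germ cell group was therefore not uniform, since Dmrt1 lay nearer to Dmrt2 with Santa Cruz (1.43 against 1.68) and to Dmrta1 with Abcam (1.67 against 1.54) than to the other germ cell members. In the order of the Santa Cruz ratios (Dmrtb1, Dmrtc2, Dmrt2, Dmrt1, Dmrt3, Dmrta2, Dmrta1) and of the Abcam ratios (Dmrtc2, Dmrtb1, Dmrt1, Dmrta1, Dmrt2, Dmrta2, Dmrt3), the intervals of all neighbouring members overlapped. For none of the 7 members did the interval of the Abcam to Santa Cruz ratio exclude 1.

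The level at the 2 called members depended on the distance counted. At Dmrtc2 the Abcam ratio was 6.37 within 1 kb, 3.27 within 3 kb and 1.89 within 10 kb, and the Santa Cruz ratio was 3.92, 2.05 and 1.15. At Dmrtb1 the ratio stayed at 3.47 with Santa Cruz and 3.48 with Abcam within 1 kb, and was 1.43 and 1.31 within 10 kb. Dmrt1, not called, also passed 2-fold with Abcam within 1 kb (2.16, 1.24–3.61), where its Santa Cruz ratio was 1.33 (0.610–2.60). Within 10 kb no member reached 2-fold with both antibodies, which 0.212% of promoters did.

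**Figure D4:**
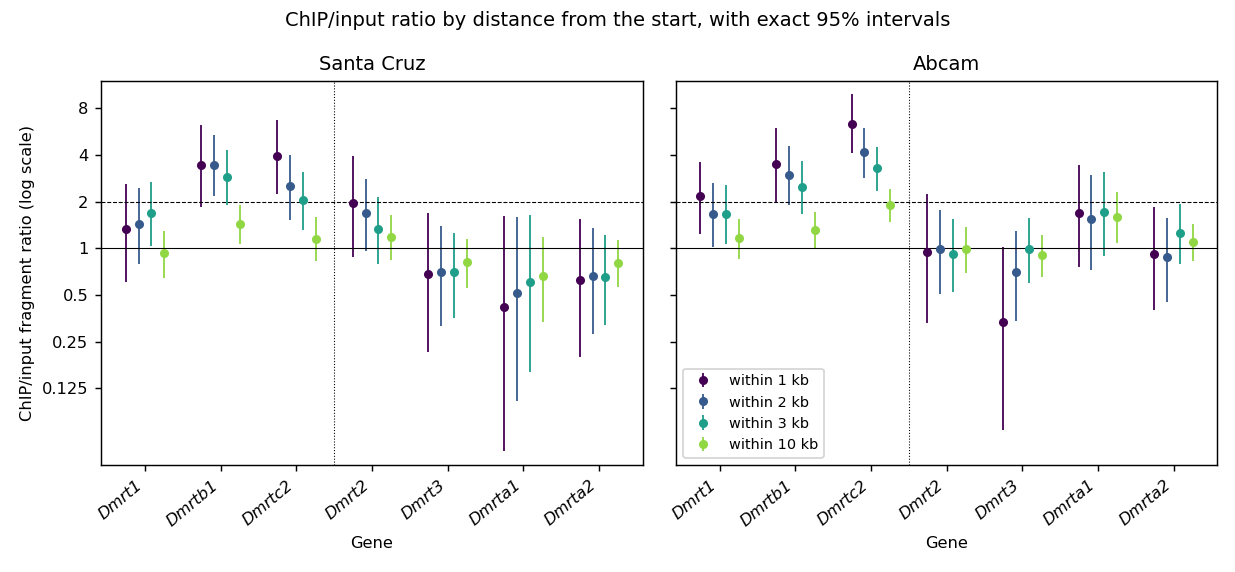
ChIP/input fragment ratio (y axis, log scale) of each Dmrt gene within 1, 2, 3 and 10 kb of the TSS (colours), for Santa Cruz (left) and Abcam (right), with exact 95% intervals as bars and a dashed line at 2-fold. At Dmrtc2 the Abcam ratio is 6.37 in the narrowest window and 1.89 in the widest, and the somatic members stay below 2-fold in every window.

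Dmrt1, Dmrt3 and Dmrt2 form a cluster of 173393 bp on chromosome 19, in which the starts of Dmrt1 and Dmrt3 lie 104831 bp apart and those of Dmrt3 and Dmrt2 61880 bp apart. Over the whole cluster the ratio was 0.872 (0.770–0.985) with Santa Cruz and 0.971 (0.872–1.08) with Abcam, from 2891 input, 287 Santa Cruz and 394 Abcam fragments. Of 54 windows of 5 kb across the cluster and its flanks, 0 reached 2-fold with both antibodies. The highest Abcam window (2.02, 1.27–3.13) was the one that begins at the Dmrt1 start, where the Santa Cruz ratio was 1.66 (0.946–2.77). The highest Santa Cruz window (2.08, 1.04–3.85) was centred 12.5 kb upstream of Dmrt1, outside any member, where the Abcam ratio was 1.17 (0.506–2.38). Averaged over the cluster, the ChIP libraries thus did not exceed the input, and the antibodies had their highest windows at different places. Dmrtb1 and Dmrta2, 2293823 bp apart on chromosome 4, are not in a cluster of this kind.

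**Figure D5:**
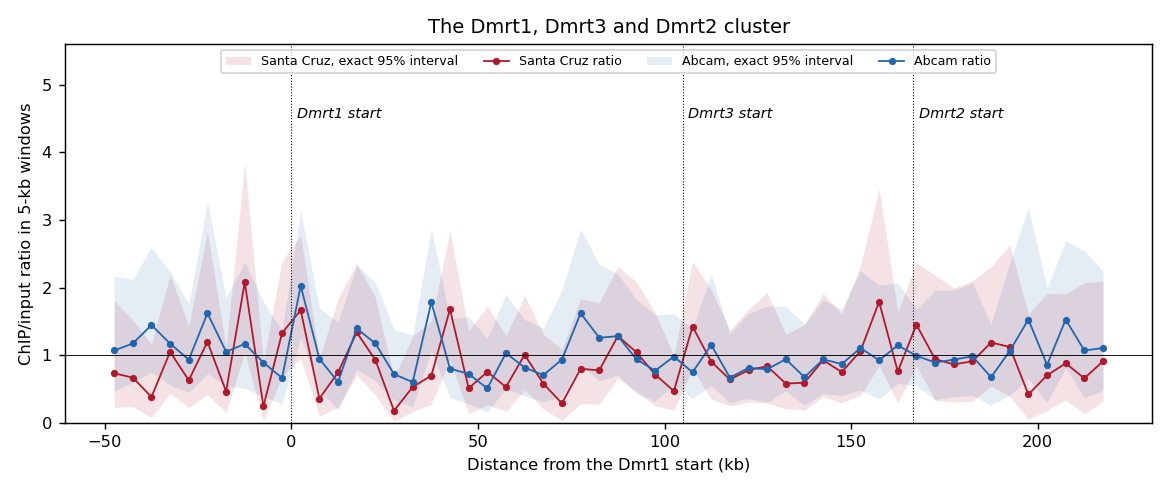
ChIP/input ratio in 5-kb windows (y axis) against the distance from the Dmrt1 start in kb (x axis) across the Dmrt1, Dmrt3 and Dmrt2 cluster, for Santa Cruz (red) and Abcam (blue), with exact 95% intervals shaded and the 3 starts as dotted lines. The Santa Cruz ratios range from 0.177 to 2.08, and the Abcam ratios reach from 0.509 up to 2.02.

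Promoter sequence was not part of the rule that set the family. Motifs were searched on both strands within 500 bp of each TSS: the E-box CACGTG, the E2F-type site TCCCGC, and the T-box site AGGTGTGA. Matches of different motifs were counted separately, also where they overlap. The E-box occurred in 0 of the 7 members and in 18.9% of all promoters, and the T-box site in 0 of 7 and in 3.31%. The E2F-type site occurred in all 7 members, enriched or not, and in 56.3% of all promoters. Within 1 kb, where 30.6% of all promoters hold an E-box, it occurred at 1 member, Dmrt1, 721 bp downstream of the TSS in the intron shown above. The content of G and C was 53.6% at Dmrtb1 and 62.6% at Dmrtc2, on either side of the median of all promoters (57.0%), and it was highest at Dmrt3 (71.2%). The observed to expected CpG ratio ranged from 0.584 at Dmrtb1 to 0.764 at Dmrta1 (median of all promoters 0.646). It was 0.593 at Dmrtc2, the next lowest of the family. Among all promoters, Dmrtb1 and Dmrtc2 stood near the middle, at percentiles 43.1 and 44.0, and a relation to the signal was not tested. E2F-type matches numbered 1 at Dmrtb1 and 2 at Dmrtc2, within the range of 1 to 3 at the other members.

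The promoters whose pair of ratios lay nearest to that of Dmrtb1 were Fancf, a gene of the Fanconi anaemia DNA repair pathway (3.43 with Santa Cruz and 3.01 with Abcam), Gm6406 (3.51 and 3.09) and B230208H17Rik (3.46 and 3.13). Likeness was the distance between the 2 log2 ratios over 2 pooled libraries, 0.0112 for Fancf. Such distances are far smaller than the counting error of the ratios, so which promoters lie nearest is not resolved. Gm6406 had 30 input fragments, the minimum allowed, with 12 Santa Cruz and 13 Abcam fragments.

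Among 3 lists of genes that act beside the Dmrt factors, promoters past 2-fold with both antibodies occurred in the list of spermatogonial and meiotic regulators. In this list 3 of 18 promoters with a value did so, against 1.23% of all promoters: Ddx4 (9.06 with Santa Cruz and 10.02 with Abcam), a germ cell RNA helicase, Dazl (3.19 and 2.699), a germ cell RNA-binding protein, and Tdrd1 (3.46 and 2.41), a tudor protein of the piRNA pathway. The median of the list was 1.27 and 1.18. The lists were chosen with earlier results of these data known, so nothing is read from the difference between this share and the background. Without Santa Cruz replicate 1 the count was 5, with Sohlh2 and Spo11 added, where 1.23% of all promoters passed. Within 1 kb the count was 7, where 2.17% passed. The smaller of the 2 ratios was 2.98 at Dmrtb1 and 2.51 at Dmrtc2, against 9.06 at Ddx4, 2.699 at Dazl and 2.41 at Tdrd1. Its interval was 1.90–4.60 at Dmrtb1, 1.52–3.99 at Dmrtc2, 1.63–4.34 at Dazl and 1.45–3.87 at Tdrd1. These intervals overlapped and reached below 2. At Ddx4, with 32 input fragments against a minimum of 30, it was 5.40–15.2. Of 16 regulators of sex determination and the gonad, such as Sox9, Foxl2 and Amh, 0 reached 2-fold with both antibodies (medians 0.656 and 0.779). Of 16 regulators of somite and neural patterning, 0 did so (0.831 and 0.912). Wt1 stood in both of these lists. With 1.23% of all promoters called, a count of 0 in a list of 16 does not depart from the background, and nothing is read from it. The somatic Dmrt members had medians of 0.684 and 0.930. Single members stood higher: Dmrt2 with Santa Cruz (1.68) lay above the highest value of both lists (1.12 and 1.46), and Dmrta1 with Abcam (1.54) lay above the highest of the gonad list (1.36) and below that of the patterning list (2.15).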

How the data were processed

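Pcgf6 ChIP-seq of CCE ESCs was analysed from 5 libraries. The deposited values are a coverage signal, the whole-number depth of reads that the authors extended to 300 bp on mm9, given without scaling and without input correction. The submitters' processing notes name Bowtie 0.1.2.7; the treatment of duplicate reads was not given in the sources used here. Each rise in depth was matched to the fall 300 bp further on to place the fragments, and at most 0.161% of falls in a library had no match. 1 fragment was kept per position, fragments were placed at their middle, and replicates of an antibody were joined with shared fragments counted once. Coverage has no strand, so no strand-aware filter was possible.

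Fragments were counted within 2 kb of the main TSS, the one with most protein-coding transcripts (GENCODE vM1 annotation of the same build, upstream on a tie), and divided by the pooled library totals and by the input. A promoter was called at 2-fold with both antibodies. With 1 independent library per antibody and members chosen by these values, no test was run. The depth of 2561439 and 3157723 ChIP fragments gave a median of 7 and 10 fragments per promoter, which limits the precision. The members and lists were chosen with earlier results of these data known. Genes named were the members, list genes past 2-fold with both antibodies, genes starting within 10 kb of a member, and the 3 promoters nearest to Dmrtb1 in both log2 ratios; Sohlh2 and Spo11 were named after their values were seen. Of 20 spermatogonial and meiotic genes listed, 2 (Tfap2c and Meioc) were not matched by symbol. Best windows of 600 bp were sought in steps of 50 bp, and of tied windows the middle of the first run was taken. Printed sequences were read from the NCBIM37 (mm9) genome. Alternatives were windows of 1, 3 and 10 kb, every deposited fragment, scaling by the median ratio of 10-kb windows, each replicate left out, the most upstream TSS, 1.5-fold and 3-fold calls, and 250 and 1000 bp for motifs. Steps were tested on simulated data. The software was matplotlib 3.10.9 for figures, and numba 0.67.0, pandas 2.3.3, scipy 1.17.1 and numpy 2.4.6 under Python 3.11.15.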

Additional observations from a re-analysis of the deposited data

How the results depend on the processing

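Dmrtb1 and Dmrtc2 were the members past 2-fold with both antibodies under every alternative but 2. Within 10 kb and at 3-fold the count was 0, where 0.212% and 0.346% of all promoters passed. The germ cell ratio was 1.17 with Santa Cruz and 1.45 with Abcam within 10 kb, and 3.79 with Abcam within 1 kb. Most alternatives counted largely the same fragments again, so staying within an interval does not measure robustness. Within 10 kb the ratios of Dmrtb1 and Dmrtc2 left their intervals with both antibodies. Of 112 member ratios under an alternative, 106 stayed within the interval of the reported value. On the other side of 1 from it were 7, none of them at Dmrtb1 or Dmrtc2: Dmrt1 with Santa Cruz (0.926 within 10 kb), Dmrt2 with Abcam (1.01 to 1.04 in 4 settings) and Dmrta2 with Abcam (1.26 within 3 kb and 1.10 within 10 kb). Among spermatogonial and meiotic regulators the count of 3 became 7 within 1 kb (2.17% of all promoters) and 1 within 10 kb (0.212%). It was 5 with median scaling (1.44%), 7 at 1.5-fold (3.8%) and 1 at 3-fold (0.346%). When each replicate was left out in turn it was 3 to 5 (1.2% to 1.24%). The share of all promoters was 1.23% in the main setting, so the call itself loosened or tightened. Within 1 kb of the TSS the E-box, also with an E2F-type site, occurred at 1 member rather than 0. The cause of these shifts was not tested. No paired analysis was possible because the values come from no test and the replicates of an antibody hold the same fragments. With 3 to 49 ChIP fragments per member, differences within the intervals were not detectable.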

Other observations

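Genes that start within 10 kb of a member besides Lypd4 and 3010003L10Rik were the pseudogene Gm12899, 3898 bp upstream of Dmrtb1, the long non-coding RNA 1700047F07Rik, 5471 bp upstream of Dmrtb1, and the pseudogene Gm9844, 7779 bp upstream of Dmrtc2. All 3 lie outside the promoter windows of Dmrtb1 and Dmrtc2. A promoter with as many input fragments as the members (51–112) reached 2-fold with both antibodies in 1.08% of cases, near the 1.23% of all promoters. Among 16 regulators of somite and neural patterning, 2 promoters passed 2-fold with Abcam, which 2.97% of all promoters did. They were Neurog2 (2.15, 1.27–3.50) and Ripply2 (2.02, 1.10–3.51), with Santa Cruz ratios of 0.602 and 1.46. In the spermatogonial list, Sohlh2 (3.17), Mael (3.44) and Spo11 (2.04) likewise passed with Abcam but not with Santa Cruz. Among spermatogonial regulators Nanos2 had 12 Santa Cruz and 4 Abcam fragments, ratios of 1.32 (0.654–2.43) and 0.356 (0.0948–0.948). These genes were picked after their values were seen.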
